A study of Mus musculus with 2 samples.

Results

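The Ms4a genes encode membrane proteins that span the membrane several times and are related to CD20. The 10 genes described here, Ms4a1, Ms4a4a, Ms4a4b, Ms4a4c, Ms4a4d, Ms4a6b, Ms4a6c, Ms4a6d, Ms4a7 and Ms4a8a, were chosen by family name from the RefSeq gene table, with the array signals of an earlier analysis in view, so their differences are a description and support no test. Probes were assigned by accession, and 9 of the 10 genes had at least 1 probe, out of 20655 named genes with a probe on the array. No probe matched Ms4a4a. RAW246.1 cells, labelled as macrophages and grown in DMEM, were measured on 2 one-colour (Cy3) mouse arrays from Agilent: 1 sample given PBS (the mock treatment) and 1 given synthetic miR-122, a microRNA known mainly from liver. The treatment text gives 5 μg/mL of synthetic miR-122 for both samples, and the title of the miR-122 sample says "without", so the groups rest on the source name and description of each sample. With 1 array per group there is no replicate check, no p-value and no spread between cultures, and treatment cannot be told apart from array position. The labels give RIPA buffer for the extraction and total RNA as the molecule. The study asked how miR-122 from liver bears on inflammatory activation of lung macrophages.

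CD20, the product of Ms4a1, is a surface protein of B cells. The other genes of this family are spread over blood cells: Ms4a2 encodes the beta chain of the high-affinity IgE receptor of mast cells, Ms4a4b is known from mouse T cells, and Ms4a4a, Ms4a6d and Ms4a7 from macrophages. Many of these proteins sit beside signalling receptors and alter how strongly those receptors signal; human MS4A4A, for example, has been found with Dectin-1 in macrophages and linked to the receptor TREM2. In mice the Ms4a4 and Ms4a6 groups hold several near copies each, so a probe for one copy can also detect another.

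The near copies are visible in the sequence around the starts that the RefSeq promoter table uses. Among the 8 members with a window in the RefSeq promoter table (GRCm38.p6), the pair Ms4a6b and Ms4a6c and the pair Ms4a4b and Ms4a4c aligned over long stretches, while the next best pair, Ms4a4c with Ms4a6b, aligned over 24 bases. Ms4a6b and Ms4a6c matched at 193 of 216 aligned bases, or 89.4%, outside 18 gap positions, and the longest run they shared was 48 bases. Ms4a4b and Ms4a4c matched at 159 of 177 aligned bases, or 89.8%, with 1 gap position. The 250 bases before the start are shown for these 4 genes because 3 of them had the probes with the largest differences of the family and the remaining gene, Ms4a6c, is the close copy of Ms4a6b. All lie on the plus strand, Ms4a6b at chr19:11518309-11518558, Ms4a6c at chr19:11469118-11469367, Ms4a4b at chr19:11443308-11443557 and Ms4a4c at chr19:11407411-11407660. The start is the one used by the first window of each gene in the promoter table. For Ms4a4c these bases lie inside the gene, which begins at 11404717 in the RefSeq gene table. For Ms4a6c they reach past the gene's beginning there, at 11469353. Capitals mark the 48-base run shared by Ms4a6b and Ms4a6c, and in Ms4a4b and Ms4a4c the letters GAGGAA, a core bound by PU.1, a transcription factor of macrophages and B cells.
Ms4a6b: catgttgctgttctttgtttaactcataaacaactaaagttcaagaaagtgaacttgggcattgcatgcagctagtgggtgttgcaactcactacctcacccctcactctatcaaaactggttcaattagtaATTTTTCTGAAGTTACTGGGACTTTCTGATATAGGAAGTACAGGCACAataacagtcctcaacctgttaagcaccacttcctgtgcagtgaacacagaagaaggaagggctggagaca
Ms4a6c: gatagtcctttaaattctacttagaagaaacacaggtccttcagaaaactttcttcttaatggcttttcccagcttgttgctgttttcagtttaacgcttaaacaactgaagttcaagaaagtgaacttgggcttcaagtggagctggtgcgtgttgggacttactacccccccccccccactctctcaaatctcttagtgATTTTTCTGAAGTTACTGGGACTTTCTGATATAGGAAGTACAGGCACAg
Ms4a4b: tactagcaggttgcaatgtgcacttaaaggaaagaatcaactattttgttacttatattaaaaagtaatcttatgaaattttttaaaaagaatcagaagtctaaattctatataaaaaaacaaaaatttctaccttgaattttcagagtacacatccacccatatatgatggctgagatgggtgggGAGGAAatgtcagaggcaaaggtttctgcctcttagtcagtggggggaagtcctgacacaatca
Ms4a4c: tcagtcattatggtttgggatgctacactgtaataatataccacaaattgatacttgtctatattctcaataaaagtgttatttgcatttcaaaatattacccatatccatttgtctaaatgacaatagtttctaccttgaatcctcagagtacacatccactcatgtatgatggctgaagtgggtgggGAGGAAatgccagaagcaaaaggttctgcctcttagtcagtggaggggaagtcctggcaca

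Short motifs were searched on both strands of the full windows, which reach 50 bases past the start. The core of the interferon-stimulated response element, GAAA and again GAAA with any 2 bases between them, was found in 0 of the 8 members with a window, and in 3.99% of 27025 genes in the table. The core of the gamma-activated site, TTCNNNGAA, was also found in 0 of 8, against 9.55% of all genes. GAGGAA was found in 3 of 8 members, Ms4a4b, Ms4a4c and Ms4a7, against 31.3% of all genes. Relative to the start that each window uses, it lay at positions -61 to -56 in Ms4a4c, -64 to -59 in Ms4a4b and 43 to 48 in Ms4a7. In Ms4a4c that start lies inside the gene. These counts say only which letters these windows hold.

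Of the 9 measured members, 5 were well above background on both arrays by the flag of the scanner software, 1 on the miR-122 array only and 3 on neither. The 4 members Ms4a6b, Ms4a6c, Ms4a6d and Ms4a7 were higher on the miR-122 array by 2.51-fold to 6.51-fold, Ms4a4b was at least 8.06-fold higher, and 3 probes of Ms4a4c were all higher, by very different folds. The members that could be compared are described here by counts that bear no test, since a gene can pass the background flag through the array on which it is bright. Taking the brightest probe of each gene, 4 of 5 passed 2-fold upward, beside 4.58% of the 15015 named genes measured on both arrays. None (0 of 5) passed 2-fold downward, beside 1.78% of those genes. The median difference of the 5, miR-122 minus PBS on the log2 scale, was 1.80, against 0.09 over all 15015 genes. Over the 7 family genes outside the list that were on both arrays it was 0.11, with 1 past 2-fold in each direction. Folds and differences are given after each array was scaled on its 75th percentile, and signals before that scaling. On the array that received miR-122 this percentile was lower by 0.28 on the log2 scale. Upward folds are therefore larger than the plain ratio of signals, and downward folds are smaller.

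**Figure D1:**
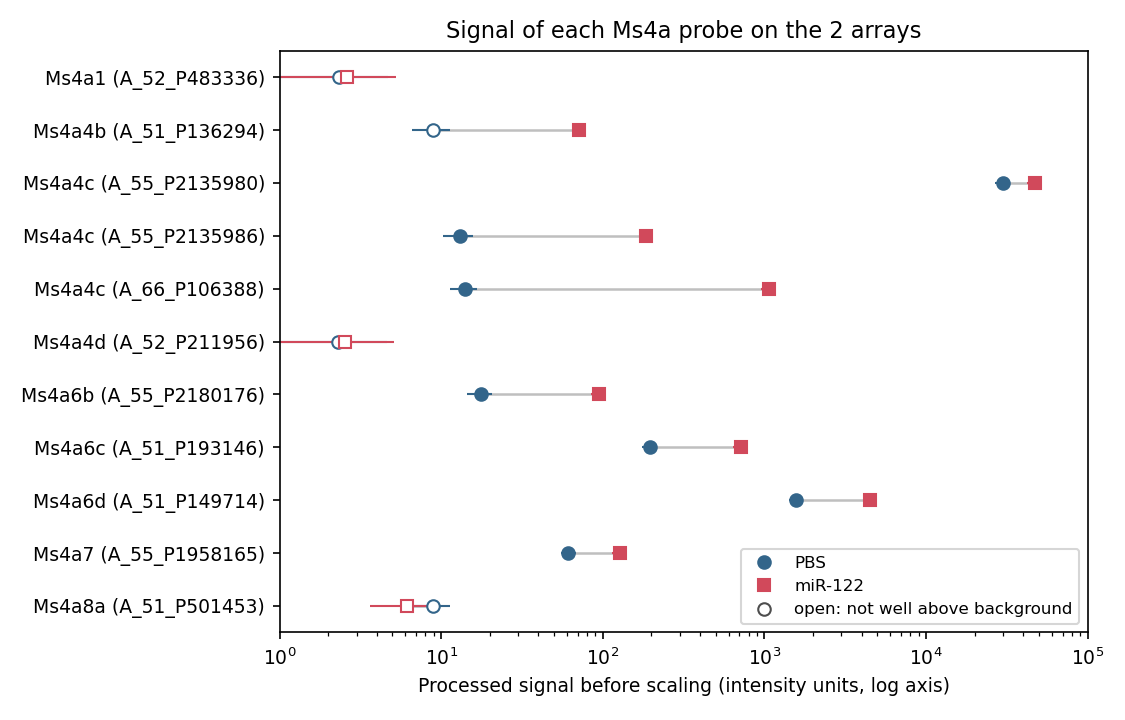
Processed signal of every probe of the 9 measured members on the PBS array (blue circles) and the miR-122 array (red squares), in intensity units before scaling on a log axis. Bars are the error that the scanner software gives for each signal, cut at the axis edge for Ms4a1 and Ms4a4d, and open symbols are not well above background. All 8 probes that were well above background on an array lie to the right on the miR-122 array, and the spacing is widest for Ms4a4c probe A_66_P106388, from 14.0 to 1064.

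Ms4a4c, a mouse paralogue of the Ms4a4 group, was measured by 3 probes that gave unlike results. Probe A_66_P106388 had a signal of 14.0 with PBS and 1064 with miR-122, 91.8-fold higher. Probe A_55_P2135986 went from 13.0 to 185.1, 17.2-fold higher. Both were dim on PBS-treated cells and brighter after miR-122. Probe A_55_P2135980, the brightest of the 3, had 29785 on PBS and 47121 on miR-122, and was 1.92-fold higher, just short of 2-fold. The log2 difference of 6.52 for A_66_P106388 was number 2 in size among the positive differences of 19243 probes of named genes on both arrays, that of 4.11 for A_55_P2135986 was number 28, and that of 0.94 for A_55_P2135980 number 951. The scanner errors of these differences were 0.31, 0.34 and 0.20, below the distance between the probes. Normexp, a background correction, was run with an offset of 50 added to each signal. With it the folds of A_66_P106388, A_55_P2135986 and A_55_P2135980 were 17.3, 3.59 and 1.79. The folds of the dim probes thus depend on the correction and its offset, and the ranks are those without them. Which transcripts each probe detects was not tested, and probe sequences were not used here.

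The distance between the Ms4a4c probes was the largest of any gene with several probes, with the signals as the scanner software processed them. The range of its 3 differences was 5.58 on the log2 scale, in first place among 3573 genes with several probes well above background on both arrays, whose median range was 0.20. The rule that takes the brightest probe therefore reports the smallest of the 3 folds, while the mean over the probes was 14.5-fold. With that mean, 5 of the 5 members were at least 2-fold higher.

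Ms4a4b, known in mice as a T cell protein that acts with the receptor GITR, was not well above background on the PBS array, with a signal of 8.93 and a scanner error of 2.35. After miR-122 its signal was 71.6, which passed the flag. Set against the lowest level that counted as well above background on the PBS array, it was at least 8.06-fold higher. Among 465 named genes that passed the flag only after miR-122, 24.7% had a bound of 2-fold or more. With normexp, run with an offset of 50 that shrinks the folds of dim signals, the bound fell to 2.24-fold. Ms4a4d, the third copy of this group with a probe, had signals of 2.31 and 2.56, not well above background on either array.

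All 3 genes of the Ms4a6 group were higher on the miR-122 array. Ms4a6b went from a signal of 17.6 on the PBS array to 94.4, and was 6.51-fold higher, a difference of 2.70 with a scanner error of 0.30. Its PBS signal was dim, and with normexp the fold was 2.37. Ms4a6c went from 195.1 to 713.8, 4.43-fold higher with a scanner error of 0.20 on a difference of 2.15, and with normexp it was 3.30-fold higher. Ms4a6d, which in mouse macrophages has been found in a complex with the receptor VSIG4, had a signal of 1570 on PBS and 4502 on miR-122. It was 3.47-fold higher, a difference of 1.80 with a scanner error of 0.20, and its fold lay between 3.08 and 3.47 over 10 alternatives in the processing. These 3 genes ranked 50, 105 and 159 from the top among the differences of 15015 genes. Whether the probes for the near copies Ms4a6b and Ms4a6c share signal was not tested.

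Ms4a7, a marker of mature tissue macrophages, had a signal of 61.3 with PBS and 127.1 with miR-122. It was 2.51-fold higher, the smallest fold past 2-fold among the members, with a difference of 1.33 and a scanner error of 0.21. Under normexp it was 1.72-fold, no longer past 2-fold. Its difference ranked 365 among all genes, and that of Ms4a4c, by its brightest probe, 784.

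The remaining measured members gave no usable difference. Ms4a1, which encodes CD20, had signals of 2.34 and 2.63, and Ms4a8a, described in alternatively activated mouse macrophages, had 8.96 on PBS and 6.17 on miR-122. Neither was well above background on either array, so no fold is given. Ms4a8a was the only member whose signal was lower on the miR-122 array, and the scanner errors of its signals were 2.37 and 2.53.

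**Figure D2:**
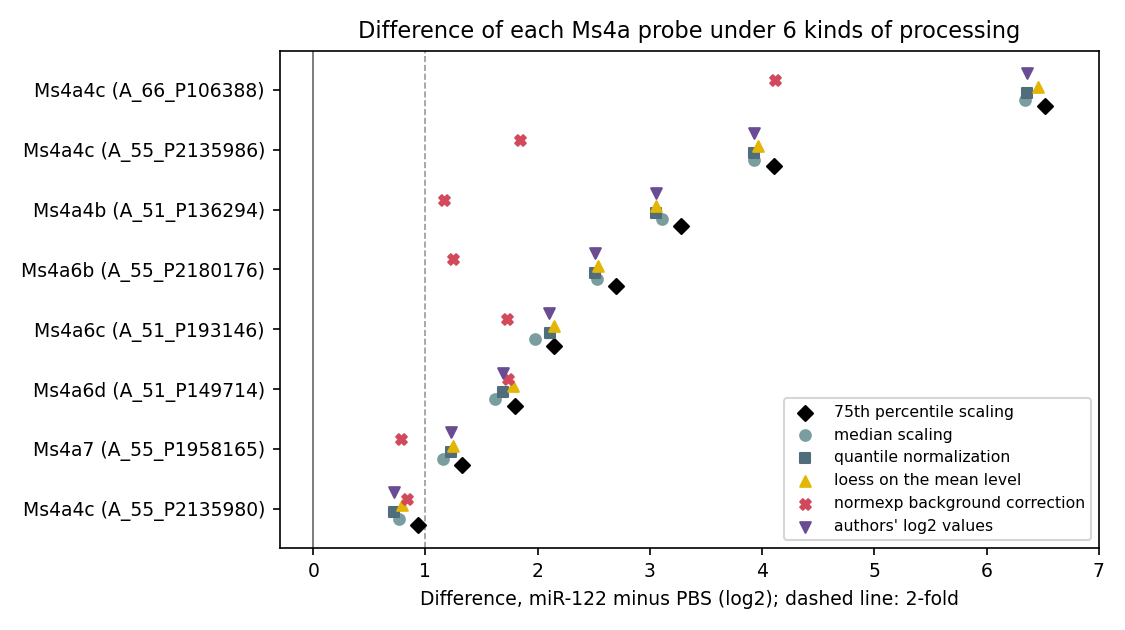
Difference in log2 units, miR-122 minus PBS, for each member probe that was well above background on at least 1 array, under 6 kinds of processing (symbols). For Ms4a4b, dim on PBS, the measured difference is drawn, not the bound. All points lie above 0, the red crosses of normexp lie far to the left for probes dim on PBS, and Ms4a6d hardly moves.

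The members that were higher lay in 1 stretch of the row of Ms4a genes, a result that the list itself fixed. The RefSeq table lists 21 Ms4a genes in a row on chromosome 19, with 0 other named protein-coding genes between them. Going along the chromosome, Ms4a7, Ms4a4a, Ms4a4c, Ms4a4b, Ms4a6c, Ms4a6b, Ms4a4d and Ms4a6d are places 12 to 19 of this row, and every one of them with a probe well above background on an array was higher on the miR-122 array, with Ms4a4a unmeasured and Ms4a4d below background. The only members outside it, Ms4a8a at place 4 and Ms4a1 at place 9, were below background on both arrays. Any member with a difference therefore had to lie in this stretch. Outside this stretch, 5 Ms4a genes, none of them on the list, were on both arrays and went both ways. Ms4a18, at place 3, was 2.99-fold higher, from a signal of 11.9 to 29.3, and Ms4a13, at place 7, was 2.05-fold lower, from 39.5 to 15.9. These signals were dim, and with normexp the folds were 1.47 and 1.13. Ms4a19 differed by 0.65, Ms4a10 by 0.27 and Ms4a5 by -0.08, and the sign of Ms4a10 turned with quantile normalization, loess and the authors' values, and that of Ms4a5 with normexp. Ms4a2, the IgE receptor chain, Ms4a3, known from myeloid precursors, Ms4a15 and Ms4a20 were not well above background on either array, and no probe matched Ms4a12 and Ms4a14. The row was read with the results in view, so the stretch is a description.

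**Figure D3:**
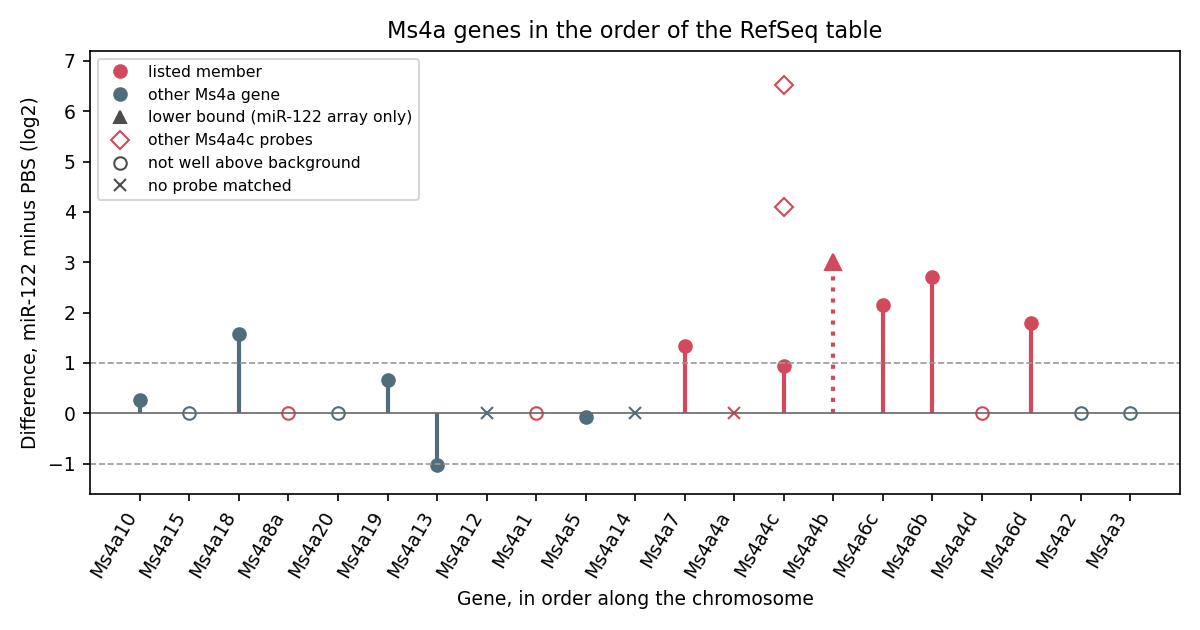
Difference in log2 units, miR-122 minus PBS, for the 21 Ms4a genes in their order along chromosome 19, one place per gene and not to distance. Filled circles are genes on both arrays by their brightest probe, the triangle is the lower bound of Ms4a4b, open diamonds are the other Ms4a4c probes at 4.11 and 6.52, open circles are genes not well above background, and crosses are genes without a matched probe. The members with positive differences sit from Ms4a7 to Ms4a6d, where all listed members lie except Ms4a8a and Ms4a1, both below background.

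The 20 named protein-coding genes next to the row, 10 on each side, had a median difference of 0.20 over the 13 that were on both arrays. Of these, 7 differences were positive and 6 negative. In this group 3 passed 2-fold upward and 0 downward, beside 4.58% and 1.78% of all named genes on both arrays. The peptide transporter gene Slc15a3 was 2.43-fold higher, the membrane fusion gene Stx3 2.13-fold and the olfactory receptor gene Olfr1417 2.01-fold higher, and Ccdc86 differed by 0.85. With median scaling, as with normexp, 1 of the 13 was past 2-fold, and with median scaling the median was 0.03. Slc15a3 was past 2-fold under all 10 alternatives. Olfr1417 was also under 2-fold with quantile normalization, loess and the authors' values, and Stx3 with the mean over probes and the dimmest probe. A test between the row and its neighbours was not possible with 1 array per group.

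Tmem176a and Tmem176b, on another chromosome, encode related membrane proteins. Tmem176b had signals of 1980 on PBS and 1068 on miR-122, 1.53-fold lower, though its dimmer probe differed by 0.00, and Tmem176a differed by 0.11, with a sign that turned under median scaling, quantile normalization, loess and the authors' values. Over the 7 family genes outside the members that were on both arrays, 1 passed 2-fold in each direction, and the sign of their median of 0.11 turned under the same scalings. Among 9 genes reported to act with Ms4a proteins, 7 were on both arrays, of which 1 passed 2-fold upward and 0 downward. Over all named genes on both arrays these shares were 4.58% and 1.78%. The median of the 7 was 0.45. The kinase gene Lyn was 2.07-fold higher, or under 2-fold with median scaling and normexp, and Fcer1a, Fcer1g and Syk, which encode chains and the kinase of Fc receptor signalling, differed by 0.56, 0.49 and 0.45. Fcer1a was dim, and with normexp it differed by 0.30. Trem2 and its adaptor Tyrobp, picked with their values known, had differences of -0.34 and -0.25, and no probe matched Clec7a, which encodes Dectin-1.

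Ms4a4c is known from mouse immune cells as a gene that interferon induces, so the genes that carry that signal were read beside the family. Of 10 such genes 9 were on both arrays, with a median of 0.74. Of these 9, 4 passed 2-fold upward and 0 downward, beside 4.58% and 1.78% of all named genes on both arrays. Irf7 was 4.93-fold, Irf1 4.43-fold, Stat2 3.03-fold and the receptor-associated kinase gene Tyk2 2.66-fold higher. That these genes and the Ms4a genes were higher on the same array is 1 observation of 1 pair of arrays, and a link between them was not tested.

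Some markers of B, T and mast cells were well above background, and the macrophage markers differed in both directions. Of 9 B cell markers 6 were on both arrays, with differences from 0.05 to 0.67 and a summed level, in log2 units relative to the 75th percentile, of 2.54 on PBS and 3.18 on miR-122. Nearly all of that sum came from Cd22, with levels of 2.43 on PBS and 3.09 on miR-122. Cd22 differed by 0.67 and the dim Cd79a and Pax5 by 0.47 and 0.39, or 0.29 and 0.19 with normexp. No probe matched Ighm, and Cd79b and Blk were below background on both arrays. Of 10 T cell markers 6 were on both arrays with a summed level of 2.19 on PBS and 2.69 on miR-122. Lck was 2.03-fold higher, or under 2-fold with median scaling and normexp, and Cd8b1, Il7r and Thy1 differed by 0.97, 0.86 and 0.69, while Cd3d, Cd3g and Cd2 were below background on both. Cd8b1 and Thy1 were dim, and with normexp they differed by 0.39 and 0.35. The defining T cell genes Cd3e and Cd4, picked with their values known, were on both arrays and differed by -0.37 and 0.06. Of 6 mast cell markers 3 were on both arrays, Cma1, Tpsb2 and Mcpt4. They differed by 0.43 (0.22 with normexp), 0.20 (negative with the mean over probes) and -0.05. Their summed levels were 2.55 and 2.52, nearly all of it from Mcpt4 (2.45 on miR-122), and Cpa3, Kit and Gata2 were below background. Among 10 macrophage markers, Csf1r, the receptor for the macrophage growth factor, and Cd14, picked with its values known, had levels of 6.78 and 6.23 on PBS. In this list 8 were on both arrays, 4 with positive and 4 with negative differences and summed levels of 7.69 and 7.39. Fcgr1 was 10.1-fold higher (5.25-fold under normexp) and Mrc1 2.15-fold, or under 2-fold with median scaling, quantile normalization, loess, normexp and the authors' values. Itgam and Csf1r differed by -0.85 and -0.78, the former past 2-fold with median scaling, but the dimmer probe of Itgam by 0.36. Mertk was below background, and no probe matched Cd68. The part of these markers in the Ms4a differences was not tested, and with RNA from whole cultures fewer cells of a kind and less RNA per cell cannot be told apart.

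The background flag was passed by 28302 of 39429 non-control probes with PBS and by 27568 with miR-122, and 0 spots were saturated. For 276 probes printed 10 times, the log2 signals of the spots of a probe had a median standard deviation of 0.05 (PBS) and 0.06 (miR-122), and different probes of a gene gave differences with a pooled standard deviation of 0.30. Every member probe was printed once, so none has a spread over spots. Actb and Gapdh, used as reference genes, differed by 0.21 and 0.18, with signs that changed or went to 0 under other scalings.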

How the data were processed

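The deposited scanner files hold Cy3 spot intensity values that, per the file headers, come from Agilent's Feature Extraction 11.0.1.1, with background subtracted and no normalization between arrays, beside the scanner software's error and its 0 or 1 flags. The deposited series matrix holds log2 values by the authors, and the sources used here do not give how they were normalized. Their differences nearly equalled those of the quantile normalization run here, with 0.72 in both for Ms4a4c probe A_55_P2135980 and 1.69 in both for Ms4a6d. The authors' values are therefore not a separate check beside quantile normalization. Each matrix column correlated across probes at 0.997 with its own array and at 0.985 with the other, so it is on a log2 scale, runs as labelled and is not centred by gene; both columns had a median of 5.17.

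Control spots and spots flagged as non-uniform or outliers (145 and 196 non-control spots) were left out. Signals were converted to log2, averaged per probe and scaled on each array's 75th percentile. Accessions were matched without versions to the RefSeq gene table of GRCm38.p6, used for names and gene order, and 27228 of 39429 probes matched 1 symbol, 0 several and 12201 none. A gene took its brightest probe, as the mean of both arrays. A bound sets the bright signal against the lowest level that passed the background flag on the dim array, or against the dim signal itself where that was higher.

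No test was run. The members, lists and rules were chosen with earlier results of these data known. Named are every member, other family genes on an array, up to 4 genes per list by size of difference, Actb and Gapdh; others are marked in the text as picked with their values known, and some genes of the lists are not reported here. No gene was named for a like pattern, since 2 arrays give 1 difference per gene. The counting was tested on simulated data. A planned protein alignment was not run, as protein sequences were not used here. Tools were R 4.3.3, limma 3.58.1, Python 3.11.15, numpy 2.4.6, pandas 2.3.3 and Biopython 1.88 for alignments.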

Additional observations from a re-analysis of the deposited data

How the results depend on the processing

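The number of members at least 2-fold higher stayed between 3 and 5 over 10 alternatives at that threshold, and none was 2-fold lower under any of them. Among these alternatives, the authors' values nearly repeated quantile normalization and are not a separate check. With a 4-fold threshold 2 members were higher. The median difference of the members, 1.80, was 1.24 with normexp (offset 50, on median spot and background intensities), 1.33 over 9 members with no filter on dim probes, and 2.15 with the mean over probes, as also with the dimmest probe of a gene, an alternative chosen after seeing the data. By construction, the last 2 replace the brightest Ms4a4c probe. Median scaling moved the median of all genes by -0.18 and quantile normalization by -0.12. These, loess (span 0.3), the authors' values, flagged spots kept and leaving out the dimmest 25% of genes kept the direction of every member compared. The last of these compared only 4 members, since Ms4a6b was among the genes left out. The median of the macrophage markers, -0.16, was 0.25 without the filter on dim probes 0.02 with the mean over probes and 0.30 with the dimmest probe. Folds of probes dim on the PBS array are limited by background. No paired analysis was possible because each group holds 1 array. Replicates could not be left out for the same reason.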
